A study of Mus musculus with 16 samples.

Results

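The genes described here are those of the adrenomedullin system: the ligands Adm and Adm2, the receptors Calcrl and Calcr, the receptor activity-modifying proteins Ramp1, Ramp2 and Ramp3, and the decoy receptor Ackr3. They were chosen by name, with earlier results of these data known. The paper places Adm2 and Ramp3 among the genes most raised by the diet in its own RNA-seq. Of the 8 genes, 7 had a row among the 21640 counted in whole mouse thyroid, of which 20841 were paired with a symbol. Calcr, the calcitonin receptor, was not analysed here. Each of the 16 libraries came from 1 wild-type C57Bl/6J mouse. Mice were 8 weeks old when their diets began, and 4 mice on the control chow diet (CD) were set against 4 on the high-fat diet with sucrose water (HF+SD) after 3 weeks, and the same numbers after 6 weeks. The labels give no sex, and the paper's supplement states that the mice sequenced at both time points were male. The comparison asks how the system stood in the thyroid after each length of overnutrition. Because the libraries of the 2 time points carry different library project numbers, levels were compared between diets within a time point and not between time points.

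Adrenomedullin and adrenomedullin 2, also named intermedin, are secreted peptides that dilate vessels and act on endothelial growth. Their receptor is a heterodimer. The calcitonin receptor-like receptor, encoded by Calcrl, reaches the cell surface only with a RAMP, and the partner sets what it binds: with RAMP1 it is the receptor of calcitonin gene-related peptide, while with RAMP2 or RAMP3 it responds to adrenomedullin. It signals mainly through Gs and cyclic AMP. ACKR3, formerly CXCR7, binds adrenomedullin and the chemokines CXCL12 and CXCL11 without classical G protein signaling and removes them. In most organs Calcrl and Ramp2 are strongest in endothelium, and loss of either in mice is known to disturb vessel development.

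Library totals ran from 30025256 to 48508653 counts. Thyroid identity was clear in every library, with 13 thyrocyte genes holding 27.3% to 30.8% of the counts at 3 weeks and 4.90% to 15.0% at 6 weeks. In the CD group at 6 weeks, 28 skeletal muscle genes took 3.91%, 16.6% and 11.9% of the counts of M43, M45 and M48, against 0.108% in M22 and at most 0.458% in the HF+SD mice. At 3 weeks that share was 0.0104% or lower in all 8 libraries. The members' values at 6 weeks were therefore also computed without M45 and M48, an alternative named below wherever it changed a call of a member. It leaves M22 and M43 as the only CD mice, and M43 still held 3.91% muscle counts, so it does not remove muscle RNA. This alternative was not run for other genes.

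At 3 weeks, 3 of the 7 genes were differentially expressed (edgeR quasi-likelihood test, adjusted p under 0.05 and at least a doubling or halving, that is, a log2 fold change past 1 or -1), and all 3 were higher in HF+SD: Adm2, Ramp3 and Ackr3. Over all 17238 genes tested, 3.25% were called higher and 1.4% lower by that rule. At 6 weeks 4 were differentially expressed. The same 3 genes were higher, where 6.64% of the 18249 tested genes were, and Ramp1 was lower, where 6.01% were. Calcrl and Ramp2 also passed the adjusted p at 6 weeks with fold changes short of the minimum, which brought the count to 6, with 5 higher and 1 lower. By the adjusted p alone, 12.0% of all genes were higher and 9.55% lower at 6 weeks. At 3 weeks the corresponding shares were 9.07% and 5.78%, and the same 3 members passed. The median log2 fold change of the 7 genes was 0.69 at 3 weeks and 0.95 at 6 weeks, where the median of all tested genes was -0.01 at both. Adm, the first ligand, passed at neither time point in edgeR. When libraries were scaled to 9 thyrocyte genes or to 16 blood endothelial genes, Adm2 alone was called at 3 weeks, and 3 genes were called at 6 weeks. Of those 9 thyrocyte genes, 1 was itself called higher at 3 weeks and 4 at 6 weeks, with 0 lower. Their scaling put the all-gene median at -0.509 and -0.959, so fold changes under it are lower for all genes. A scale of 4 thyroid transcription factor genes, added after seeing the data, is also given below.

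**Figure D1:**
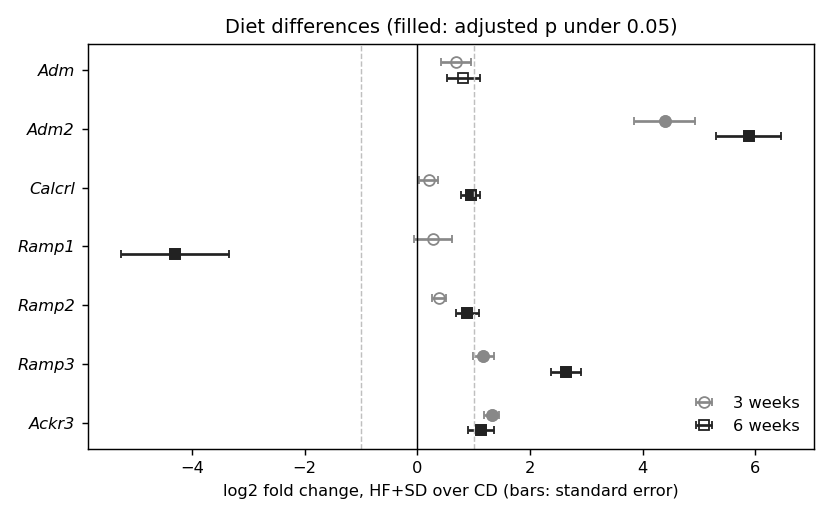
Log2 fold change of each gene, HF+SD over CD, with its standard error from the edgeR fit, at 3 weeks (circles) and 6 weeks (squares). Filled symbols have an adjusted p under 0.05, and dashed lines mark a log2 fold change of 1 in either direction. Adm2 lies farthest to the right at both time points, at 4.39 and 5.89, and Ramp1 at 6 weeks is the only point left of 0, at -4.31.

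Adm2 was among the most raised of all genes. Values are given as counts divided by the library size in units of 1000000 (CPM), scaled with TMM factors. At 3 weeks the CD mice had 11.7 (M53), 34.8 (M54), 12.5 (M55) and 4.43 CPM (M96), and the HF+SD mice had 233 (M7), 370.2 (M19y), 317 (M20y) and 405 CPM (M31). The highest CD value, in M54, was far under the lowest HF+SD value, in M7. The group means were 15.8 ± 13.1 and 331 ± 74.6 CPM (SD, n = 4), a 20.9-fold difference with a log2 fold change of 4.39 ± 0.55 (SE) and an adjusted p of 0.00102 in edgeR's quasi-likelihood test. It ranked 12 among 17238 genes by log2 fold change.

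At 6 weeks Adm2 stood at 9.90 (M22), 2.49 (M43), 3.28 (M45) and 4.41 CPM (M48) in CD mice and at 123 (M5), 427 (M18), 311 (M34) and 329 CPM (M35) in HF+SD mice. Within the HF+SD group M5 was the low mouse, and it was still above every CD mouse. The log2 fold change was 5.89 ± 0.58 (adjusted p = 0.000331 in the edgeR test), a 59.3-fold ratio of the means, and the gene ranked 9 among 18249. Counts behind these values were 101 to 345 in the CD libraries and 4683 to 13616 in the HF+SD libraries, so counting error was small beside the spread between mice. Leaving out any 1 mouse kept the log2 fold change between 4.08 and 5.12 at 3 weeks and between 5.64 and 6.46 at 6 weeks.

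The 250 bases before the start of Adm2 in RefSeq are shown because this gene had the largest change of the system. Build and strand are GRCm38.p6 and plus, at chr15:89322470-89322719, and the sequence reads 5′ to 3′ toward the start. Both strands were searched for the cAMP response element TGACGTCA and its half-site TGACG, the hypoxia response element core ACGTG, the C/EBP-ATF response element TGATGNAA, the TATA box TATAAA, the CCAAT box CCAAT and the GC box GGGCGG. A half-site lies inside every full cAMP response element, so these matches overlap. Matches would be in capitals, and this window held none of the 7 motifs.
Adm2: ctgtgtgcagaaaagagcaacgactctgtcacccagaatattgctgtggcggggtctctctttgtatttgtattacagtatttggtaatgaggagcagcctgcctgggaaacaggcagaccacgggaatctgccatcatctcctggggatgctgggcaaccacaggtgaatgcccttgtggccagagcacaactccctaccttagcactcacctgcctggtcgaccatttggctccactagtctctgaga
Among 32851 windows of the same length, 1.55% held the full cAMP response element, 17.8% its half-site, 16.6% the hypoxia core, 3.45% the C/EBP-ATF element, 12.4% the TATA box, 33.8% the CCAAT box and 32.7% the GC box. A match or its absence describes these letters only.

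Adm was 4.58, 5.05, 10.1 and 7.81 CPM in the CD mice M53, M54, M55 and M96 at 3 weeks and 8.61, 9.55, 12.5 and 13.8 CPM in the HF+SD mice M7, M19y, M20y and M31. The groups overlapped, since M55 (CD) was above M7 and M19y (HF+SD). Its log2 fold change was 0.69 ± 0.26 with an adjusted p of 0.103 in the edgeR test. At 6 weeks the level was 5.57, 5.37, 5.69 and 9.58 CPM in M22, M43, M45 and M48 (CD), and the HF+SD mice M5, M18, M34 and M35 had 6.59, 10.5, 14.0 and 15.1 CPM. M48 was high for its group and stood above M5. There the log2 fold change was 0.82 ± 0.30 (adjusted p = 0.0782 in edgeR, 0.0417 in DESeq2). In edgeR it passed at 3 weeks without M55 (adjusted p = 0.0188) and at 6 weeks without M5 (0.0328) or without M48 (0.0482).

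Set within each library, the log2 ratio of Adm2 to Adm was 0.90 ± 1.53 in CD mice and 4.89 ± 0.27 in HF+SD mice at 3 weeks, and -0.54 ± 0.92 and 4.61 ± 0.49 at 6 weeks (mean ± SD, n = 4). The groups did not overlap at either time point. Each difference, 3.99 and 5.15, reached the smallest p that an exact two-sided permutation test of 4 against 4 can give, 0.0286, or 0.0468 after Benjamini-Hochberg adjustment over the 18 tests of 9 ratios at 2 time points. Per length, Adm2 was the highest of the 7 genes in HF+SD mice, at 255 ± 57.4 CPM per kilobase of exon (RPKM) at 3 weeks and 229 ± 97.6 at 6 weeks. Adm there stood at 6.86 ± 1.50 and 7.14 ± 2.37 RPKM.

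**Figure D2:**
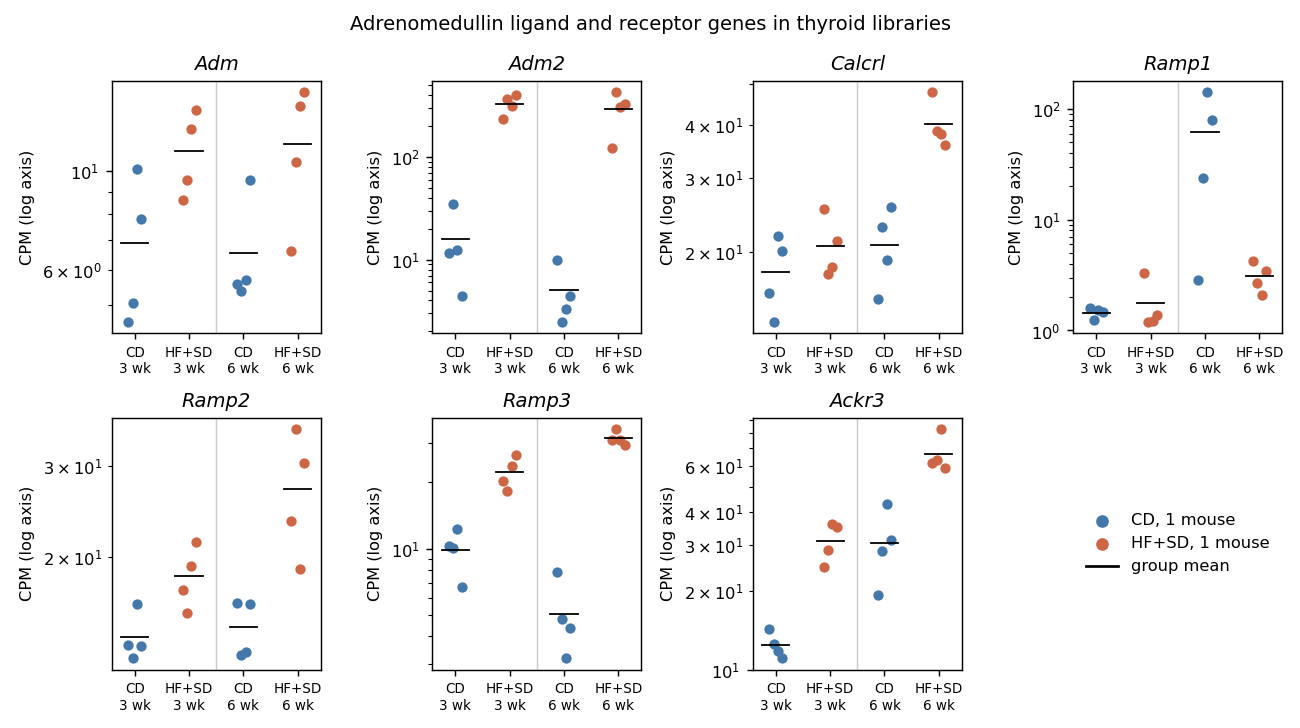
CPM of the 7 genes on log axes, with 1 point per mouse, CD in blue and HF+SD in orange, and a black line at each group mean. For Adm2, Ramp3 and Ackr3 every HF+SD mouse lies above every CD mouse at both time points, and Ramp1 on the CD at 6 weeks ranges from 2.84 to 141 CPM.

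Calcrl, the shared receptor, was 16.02, 13.7, 21.9 and 20.2 CPM in the CD mice M53, M54, M55 and M96 at 3 weeks and 25.2, 17.7, 18.4 and 21.3 CPM in the HF+SD mice M7, M19y, M20y and M31. These groups overlapped, and the log2 fold change of 0.20 ± 0.16 did not pass (adjusted p = 0.439 in edgeR). At 6 weeks it was 15.5, 22.9, 19.1 and 25.6 CPM in M22, M43, M45 and M48 (CD). The HF+SD mice M5, M18, M34 and M35 had 47.7, 38.7, 38.1 and 35.8 CPM, all above the CD mice. Calcrl was then 1.93-fold higher, with a log2 fold change of 0.95 ± 0.18 and an adjusted p of 0.00672 in the edgeR test. It was -0.042 when scaled to thyrocyte genes and -0.66 when scaled to endothelial genes. Scaled to the 4 transcription factor genes it was 0.68 (adjusted p = 0.282 in edgeR). With a muscle score (mean log2 CPM of the muscle genes) as covariate the log2 fold change was 1.25 (adjusted p = 0.00404 in edgeR). Without M45 and M48 it was 1.07 (adjusted p = 0.0191), and it also passed the fold minimum without M48 alone (1.06) and without M35 alone (1.00). In bulk tissue, more cells of a type and more RNA per cell cannot be told apart, for this gene and for the others.

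Ramp2, the partner that makes the receptor of adrenomedullin in endothelium, was 13.5, 12.7, 16.2 and 13.5 CPM in the CD mice M53, M54, M55 and M96 at 3 weeks and 17.2, 15.6, 19.2 and 21.3 CPM in the HF+SD mice M7, M19y, M20y and M31. Only M19y fell within the CD range. Its log2 fold change was 0.39 ± 0.12, with an adjusted p of 0.0564 in edgeR and 0.0339 in DESeq2. In edgeR it passed without M55 (adjusted p = 0.0184) or without M19y (0.0463). At 6 weeks the values were 16.3, 12.9, 13.1 and 16.2 CPM for M22, M43, M45 and M48 (CD) and 23.5, 35.3, 18.9 and 30.5 CPM for M5, M18, M34 and M35 (HF+SD). No HF+SD mouse was within the CD range, and the log2 fold change was 0.89 ± 0.20 (adjusted p = 0.0169 in edgeR). It was -0.068 scaled to thyrocyte genes, -0.73 scaled to endothelial genes and 0.66 (adjusted p = 0.202) scaled to the 4 transcription factor genes. It did not pass without M18 (adjusted p = 0.0519), without M45 and M48 (0.0722) or with the muscle score as covariate (0.78, adjusted p = 0.100), and it passed the fold minimum without M34 (log2 fold change 1.03). In GENCODE M21, 1103 exon bases of Ramp2 are shared with Vps25 on the same strand, so its level is uncertain where reads fell on them.

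Ramp3, the other partner for adrenomedullin and adrenomedullin 2, rose at both time points. At 3 weeks it was 10.2, 10.1, 12.2 and 6.72 CPM in the CD mice M53, M54, M55 and M96 and 20.1, 18.3, 23.6 and 26.6 CPM in the HF+SD mice M7, M19y, M20y and M31. All HF+SD values were above all CD values, with M96 the lowest of the CD mice. The log2 fold change was 1.18 ± 0.18 (adjusted p = 0.00311 in the edgeR test), a 2.26-fold ratio. At 6 weeks M22, M43, M45 and M48 (CD) had 7.86, 4.80, 3.18 and 4.38 CPM and M5, M18, M34 and M35 (HF+SD) had 30.99, 34.7, 31.1 and 29.4 CPM. The HF+SD mice lay close together, and the CD mouse nearest to them was M22, the one with little skeletal muscle RNA. All CD values were in the reverse order of the muscle share. The log2 fold change at 6 weeks was 2.64 ± 0.26 (adjusted p = 0.000331 in the edgeR test), a 6.24-fold ratio, and 2.33 without M45 and M48 (adjusted p = 0.00214). With the muscle score as covariate it was 2.19 (adjusted p = 0.00055 in edgeR). By rank Ramp3 was 517 among the genes tested at 3 weeks and 180 at 6 weeks.

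The 250 bases before the RefSeq start of Ramp3 follow, since it is the receptor component with the largest rise (GRCm38.p6, plus strand, chr11:6658283-6658532, 5′ to 3′). Capitals mark 3 matches to the GC box, and the other 6 motifs had none.
Ramp3: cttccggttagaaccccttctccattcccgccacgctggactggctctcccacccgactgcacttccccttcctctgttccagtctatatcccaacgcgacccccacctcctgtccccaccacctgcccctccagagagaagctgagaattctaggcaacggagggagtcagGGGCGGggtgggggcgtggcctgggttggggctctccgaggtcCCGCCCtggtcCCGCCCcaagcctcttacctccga
Unlike this window, that of Adm2 held no GC box. In GENCODE M21, 101 exon bases of Ramp3 lie opposite Gm11978, which was not analysed here, and the sources used here do not say whether counting used strand, so reads of the pair cannot be told apart there.

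Ramp1, the partner for calcitonin gene-related peptide, had the lowest RPKM of the members at 3 weeks. The CD mice M53, M54, M55 and M96 had 1.58, 1.24, 1.52 and 1.47 CPM and the HF+SD mice M7, M19y, M20y and M31 had 3.31, 1.20, 1.22 and 1.37 CPM. M7 alone stood apart, and the log2 fold change of 0.28 ± 0.34 (adjusted p = 0.605 in edgeR) was -0.20 without it. At 6 weeks it was 2.84, 24.0, 141 and 79.0 CPM in M22, M43, M45 and M48 (CD), while the HF+SD mice M5, M18, M34 and M35 had 4.25, 2.67, 2.09 and 3.44 CPM. M22 lay within the HF+SD range. Its log2 fold change was -4.31 ± 0.96 with an adjusted p of 0.0149 in the edgeR test.

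That difference moved with skeletal muscle RNA. The 3 CD mice with high Ramp1 were the 3 in which the muscle genes held 3.91% to 16.6% of the counts, in the same order, and 26 of the 27 muscle genes tested at 6 weeks were called lower in HF+SD, with a median log2 fold change of -5.48. In edgeR, Ramp1 was -0.68 (adjusted p = 0.171) with a muscle score as covariate and -2.10 (adjusted p = 0.0906) without M45 and M48. Its adjusted p also exceeded 0.05 without M18 (0.0518 in edgeR), without M34 (0.0525), and in limma on the deposited normalized values (0.0559). Where muscle RNA was low, in M22 and the 4 HF+SD mice, Ramp1 ranged from 2.09 to 4.25 CPM.

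**Figure D3:**
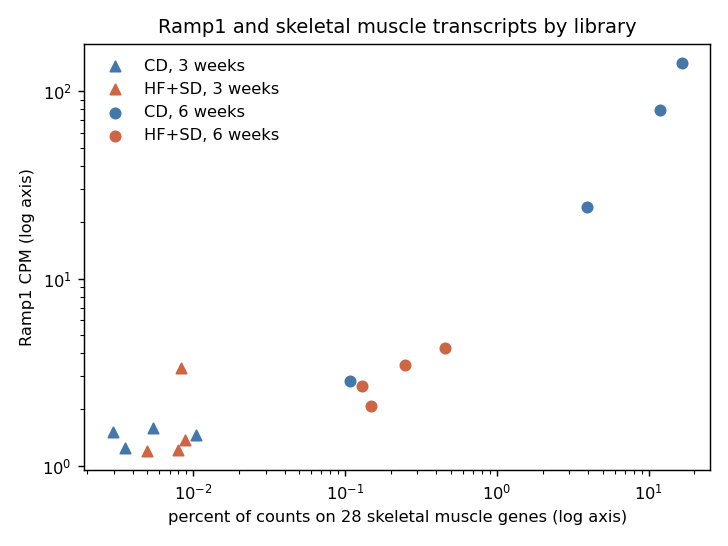
Ramp1 in CPM against the percent of a library's counts on 28 skeletal muscle genes, both on log axes, with 1 point per mouse. M43, M45 and M48 form the upper right, from 24.0 to 141 CPM at 3.91% to 16.6% muscle counts, and the other 13 libraries lie at 4.25 CPM or lower and at 0.458% or less.

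Ackr3, the decoy receptor, was higher in HF+SD at both time points. At 3 weeks the CD mice M53, M54, M55 and M96 had 14.3, 12.6, 11.8 and 11.1 CPM and the HF+SD mice M7, M19y, M20y and M31 had 24.7, 28.7, 36.0 and 34.9 CPM. The groups were well apart, with a log2 fold change of 1.32 ± 0.14 and an adjusted p of 0.000497 in the edgeR test. At 6 weeks the values were 19.3, 28.3, 42.8 and 31.3 CPM for M22, M43, M45 and M48 (CD) and 61.7, 63.1, 82.8 and 58.7 CPM for M5, M18, M34 and M35 (HF+SD). The CD values were in the order of the muscle share, from M22 up to M45, and none reached the HF+SD range. The log2 fold change was 1.13 ± 0.23 (adjusted p = 0.0105 in the edgeR test), against 0.12 (adjusted p = 0.734) scaled to thyrocyte genes and -0.50 (0.135) scaled to endothelial genes. Scaled to the 4 transcription factor genes it was 0.83 (adjusted p = 0.196). With the muscle score as covariate the log2 fold change was 1.61 (adjusted p = 0.00355 in edgeR). It was 1.49 without M45 and M48 (adjusted p = 0.00797) and, at 0.97, short of the fold minimum without M22 (adjusted p = 0.0051).

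The window before the RefSeq start of Ackr3 is shown as the third gene that was differentially expressed at both time points (GRCm38.p6, plus strand, chr1:90203730-90203979, 5′ to 3′). Its capitals mark a CCAAT box, a GC box and, 8 to 3 bases before the start, a TATA box.
Ackr3: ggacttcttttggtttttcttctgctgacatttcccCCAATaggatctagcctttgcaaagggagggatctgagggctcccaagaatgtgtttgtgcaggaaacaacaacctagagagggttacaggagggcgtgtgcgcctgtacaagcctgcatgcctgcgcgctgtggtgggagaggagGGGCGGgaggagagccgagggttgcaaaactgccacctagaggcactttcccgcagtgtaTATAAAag
No motif of the 7 was found in all 3 windows printed here.

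For these 3 genes the HF+SD values lay wholly above the CD values at both time points, and for Calcrl and Ramp2 at 6 weeks as well, so that 3 of 7 genes at 3 weeks and 5 of 7 at 6 weeks did not overlap. Among all tested genes 13.1% at 3 weeks and 13.8% at 6 weeks had every HF+SD value above every CD value. Each of these 8 cases gave the smallest exact permutation p, 0.0286 (two-sided), and 0.05 after Benjamini-Hochberg adjustment over the 14 tests of 7 genes at 2 time points, so none fell under 0.05 by this test.

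Ordered by RPKM over GENCODE M21 exon lengths, the CD mice at 3 weeks had Adm2 (12.2 ± 10.1), Ramp3 (7.11 ± 1.65), Adm (4.25 ± 1.59), Ramp2 (4.24 ± 0.459), Ackr3 (3.71 ± 0.419), Calcrl (3.68 ± 0.767) and Ramp1 (0.481 ± 0.0492). Adjacent genes overlapped in range except Ramp1, which was under all others. On the HF+SD the order became Adm2, Ramp3 (16.05 ± 2.67), Ackr3 (9.28 ± 1.60), Adm, Ramp2 (5.56 ± 0.758), Calcrl (4.23 ± 0.699) and Ramp1 (0.587 ± 0.339). There Ramp3 lay above the range of Ackr3, with 13.3 RPKM at the lowest against 10.8 at the highest, while neighbours from Ackr3 to Calcrl overlapped.

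At 6 weeks the CD order began with Ramp1 (20.4 ± 20.5), which ranged from 0.940 to 46.7 RPKM, and Ackr3 (9.09 ± 2.90), followed by Ramp2 (4.44 ± 0.563), Calcrl (4.26 ± 0.905), Adm (4.05 ± 1.25), Adm2 (3.87 ± 2.58) and Ramp3 (3.66 ± 1.44). The last 5 overlapped, so their order is not resolved. On the HF+SD it ran Adm2, Ramp3 (22.9 ± 1.62), Ackr3 (19.9 ± 3.28), Calcrl (8.20 ± 1.07), Ramp2 (8.20 ± 2.20), Adm and Ramp1 (1.03 ± 0.310), in which Ramp3 and Ackr3 overlapped and both were above Calcrl.

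The partners of Calcrl thus stood in different proportions. Of the summed RPKM of Ramp2 and Ramp3, Ramp3 made up 62.1% ± 5.16 in CD mice and 74.2% ± 0.607 in HF+SD mice at 3 weeks, and 44.1% ± 7.69 and 73.9% ± 4.79 at 6 weeks (SD, n = 4). These shares rest on annotated exon lengths of 3301 bases for Ramp2 and 1380 for Ramp3, whereas their ratio between diets does not. The shares and every ratio with Ramp2 are uncertain where reads fell on its 1103 exon bases shared with Vps25. Within libraries, the log2 ratio of Ramp3 to Ramp2 rose from -0.54 ± 0.31 to 0.27 ± 0.05 at 3 weeks, a difference of 0.80, and from -1.59 ± 0.45 to 0.26 ± 0.37 at 6 weeks, a difference of 1.85. The diets did not overlap. The log2 ratio of Ramp3 to Calcrl was higher by 0.98 at 3 weeks and 1.74 at 6 weeks, again with no overlap. All 4 differences had an exact permutation p of 0.0286 (two-sided, adjusted 0.0468 over 18). Without M45 and M48 the 6-week differences were 1.49 and 1.27. The Ramp3 shares of the CD mice at 6 weeks were 53.6% (M22), 47.0% (M43), 36.7% (M45) and 39.2% (M48), in the reverse order of the muscle share.

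By contrast, the log2 ratio of Ramp2 to Calcrl differed by 0.17 at 3 weeks and by -0.11 at 6 weeks. Both differences were within the spread between mice (SD 0.21 to 0.48, exact permutation p = 0.343 and 0.771, two-sided). The ratio of Ramp1 to Ramp2 was lower by 4.13 on the log2 scale at 6 weeks, with an SD of 2.56 in the CD mice and overlapping groups (exact permutation p = 0.0571, adjusted 0.0791). Without M45 and M48 this difference was -2.30.

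**Figure D4:**
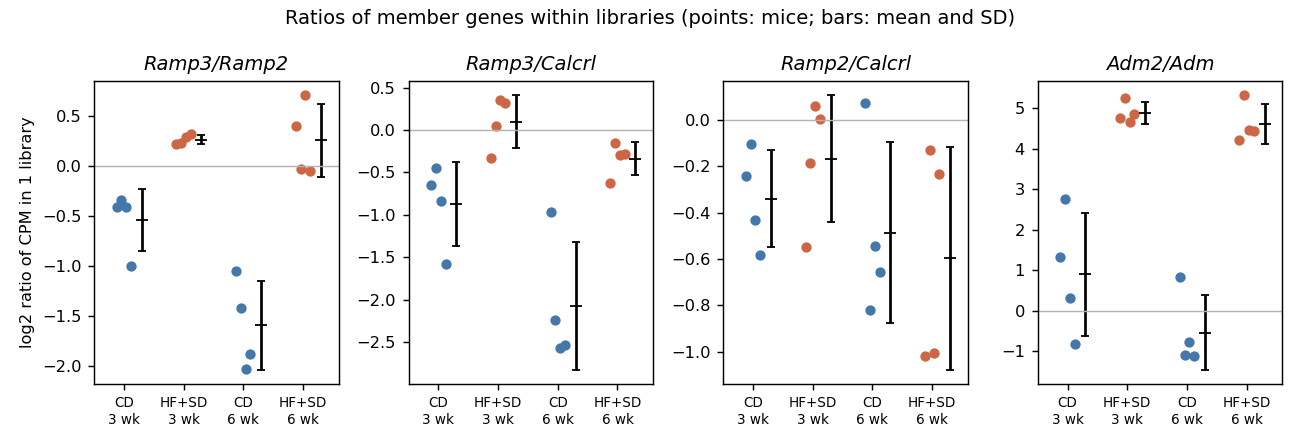
Log2 ratios of CPM within single libraries for 4 pairs of genes, with 1 point per mouse and the mean and SD of each group beside it. Ramp3/Ramp2, Ramp3/Calcrl and Adm2/Adm separate the diets at both time points, while Ramp2/Calcrl overlaps at both.

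Markers of blood endothelium were also higher in HF+SD. Of 16 genes, 14 passed the adjusted p upward and 0 downward at 3 weeks, 15 and 0 at 6 weeks. The median of their log2 fold changes was 0.77 and 1.61. Kdr, the receptor of VEGF, had 1.05 and 1.92, and Cdh5, the cadherin of endothelial junctions, had 0.91 and 1.80. Together the 16 genes held 0.0849% to 0.101% of counts in CD mice against 0.152% to 0.222% in HF+SD mice at 3 weeks, and 0.0343% to 0.0756% and 0.179% to 0.224% at 6 weeks, with none at 0. The lowest CD share at 6 weeks was that of M45, with 16.6% muscle counts, and the highest that of M22, with 0.108%. M43 and M48 had 0.0511% and 0.0543%. The part of muscle RNA in these 6-week values was not tested. The log2 fold changes of Calcrl and Ramp2 were under the marker median at both time points, and only Cldn5, a tight junction gene, was under both of them at both. The log2 ratio of Ramp2 to their mean fell by 0.41 at 3 weeks and by 0.76 at 6 weeks without overlap (exact permutation p = 0.0286, two-sided, adjusted 0.0468). For Calcrl it was lower by 0.58 and 0.64, with overlap (exact permutation p = 0.0857 and 0.0571, adjusted 0.110 and 0.0791). The Ramp2 ratio carries the uncertainty of the exon bases shared with Vps25. Ackr3 was above the markers at 3 weeks, by 0.52 without overlap (exact permutation p = 0.0286, adjusted 0.0468), and not distinguishable from them at 6 weeks (-0.44, exact permutation p = 0.314). The part of endothelial content in the members' levels was not tested.

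**Figure D5:**
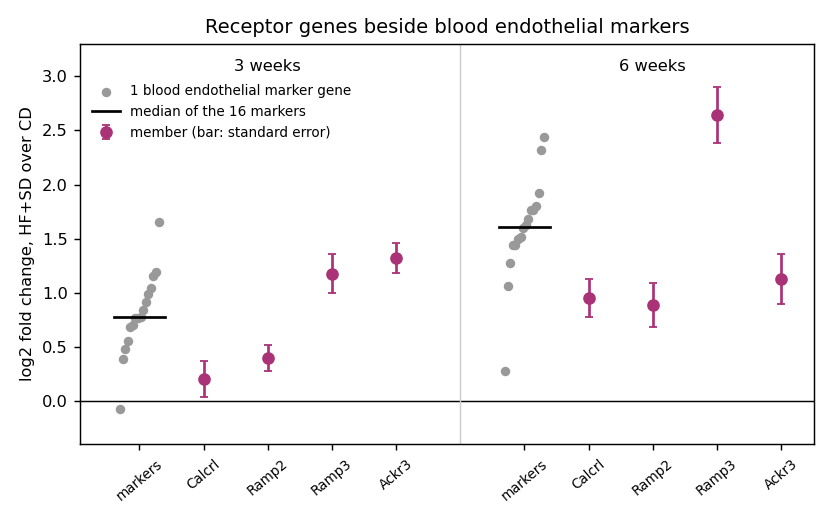
Log2 fold changes, HF+SD over CD, of 16 blood endothelial marker genes (gray points, with their median as a line) beside Calcrl, Ramp2, Ramp3 and Ackr3 with standard errors, at 3 and 6 weeks. Calcrl and Ramp2 lie under the marker median at both time points, at 0.20 and 0.39 against 0.77 and at 0.95 and 0.89 against 1.61, and Ramp3 lies above it, at 1.18 and 2.64.

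Scaled to those endothelial genes, an alternative that shifts the all-gene median by -0.792 (3 weeks) and -1.62 (6 weeks), Adm2 remained higher by 3.58 and 4.32 on the log2 scale. Ramp3 was 0.38 (adjusted p = 0.0686 in edgeR) at 3 weeks and 1.06 (adjusted p = 0.0026) at 6 weeks, while Calcrl, Ramp2 and Adm turned negative at both time points and Ackr3 at 6 weeks. Against 9 thyrocyte genes, the log2 ratio of Adm2 was higher by 4.25 at 3 weeks and 5.02 at 6 weeks with no overlap (exact permutation p = 0.0286, two-sided, adjusted 0.0468). Among the 13 thyrocyte markers, 7 passed upward and 0 downward at each time point. Slc5a5, the sodium iodide symporter, had log2 fold changes of 2.36 and 2.49, whereas Pax8, a thyroid transcription factor, had 0.18 (adjusted p = 0.495 in edgeR) and 0.01 (adjusted p = 0.974).

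Other marker lists moved less evenly. Of 8 lymphatic endothelial genes, 1 passed upward and 0 downward at 3 weeks and 1 each way at 6 weeks, with medians of -0.17 and -0.24. Among 9 mural and smooth muscle genes 2 passed upward at 3 weeks and 5 at 6 weeks, none downward, with medians of 0.28 and 0.99. Fibroblast genes gave medians of 0.02 and -0.05, with 2 of 7 passing upward at 3 weeks and 1 downward at 6 weeks. Of 8 macrophage genes none passed at 3 weeks and 6 passed upward at 6 weeks (medians 0.09 and 0.77), and of 8 adipocyte genes 6 and 7 passed downward (medians -1.04 and -1.26). The 7 C cell genes had medians of -0.55 and -0.76, with 3 passing downward and 1 (Ret) upward at 3 weeks and 4 downward at 6 weeks. Of 3 parathyroid genes none passed, with medians of -0.67 and -2.07 and all 3 below 0 at both time points. At 3 weeks 3 of 22 skeletal muscle genes passed upward (median 0.73), and 1 of the 28 had no count in any CD library. Their part in the members' levels was not tested.

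The diet differences at the 2 time points were compared by an interaction term over all 16 libraries. None of the 7 genes passed the adjusted p in edgeR, where 15 of 18929 genes, 0.0792%, did. At an unadjusted p under 0.05 there were 3, and DESeq2 called 2, Ramp3 and Ramp1. The difference for Ramp3 was 1.41 ± 0.32 on the log2 scale (adjusted p = 0.0592 in edgeR, 0.00122 in DESeq2), with the larger fold change at 6 weeks. In edgeR it passed without M22 (1.72, adjusted p = 0.000925) or without M43 (1.37, adjusted p = 0.0369). For Ramp1 it was -4.66 ± 1.07 (adjusted p = 0.0602 in edgeR, 0.00165 in DESeq2), and it too passed without M22 (-5.05, adjusted p = 0.000626) or without M43 (-4.93, adjusted p = 0.0322). Without M45 and M48, the CD mice richest in muscle RNA, it was -2.36 (adjusted p = 0.217) for Ramp1 and 1.17 (adjusted p = 0.134) for Ramp3. Calcrl had 0.69 ± 0.25 (adjusted p = 0.125) and Adm2 1.44 ± 0.75 (adjusted p = 0.273).

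Of 3 other ligand genes of the receptor family 2 were tested, and they fell, Calca at both time points and Calcb at 6 weeks. Calca, which encodes calcitonin and calcitonin gene-related peptide and is the product of C cells, averaged 3516 CPM in CD mice against 2323 in HF+SD mice at 3 weeks (log2 fold change -0.60, adjusted p = 0.0254 in edgeR) and 6944 and 3725 CPM at 6 weeks (-0.90, adjusted p = 0.0236). Calcb, the second gene for calcitonin gene-related peptide, was at 1.45 and 0.506 CPM at 6 weeks (-1.52, adjusted p = 0.00504). Among 14 genes that process or degrade such peptides, 2 passed upward and 3 downward at 3 weeks and 4 each way at 6 weeks. Over all tested genes 9.07% passed upward and 5.78% downward at 3 weeks, and 12.0% and 9.55% at 6 weeks. The same shares apply to the counts of the other gene lists. Mme, encoding neprilysin, which cleaves adrenomedullin, was lower by 1.06 and by 1.23 on the log2 scale, with means of 25.2 against 12.1 CPM and 28.8 against 12.3 CPM. Cpe, a carboxypeptidase of secretory granules, had a log2 fold change of -1.18 at 6 weeks, with 52.8 (M22), 82.7 (M43), 170.2 (M45) and 119 CPM (M48) on the CD, in the order of the muscle share, against 45.5 to 48.5 CPM on the HF+SD. Pam, which amidates the ligands, had -0.02 and 0.09 (adjusted p = 0.898 and 0.758 in edgeR) and was named after its values were seen, as were Calca, Cxcr4, Cldn5 and Ret.

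Of 28 genes of receptor coupling and cyclic AMP signaling, 27 were tested at each time point. At 3 weeks 3 passed upward and 3 downward, at 6 weeks 5 and 4, with medians of -0.09 and 0.09. Rapgef4, the cyclic AMP sensor EPAC2, rose from 13.7 to 28.8 CPM at 3 weeks (log2 fold change 1.07, adjusted p = 0.000422 in edgeR) and from 15.3 to 46.3 CPM at 6 weeks (1.60, adjusted p = 0.000379). Adcy4, an adenylyl cyclase, had 0.99 and 1.65. Adcy10, the soluble cyclase, had -2.65 and -2.20 at 2.01 CPM or lower in every 6-week library. Adcy2 had -3.37 at 6 weeks, and its CD values of 5.42 (M22), 17.3 (M43), 66.1 (M45) and 47.1 CPM (M48) followed the muscle share.

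Among other receptors known to pair with RAMPs, 10 were tested at 3 weeks, where 1 passed downward, and 11 at 6 weeks, where 1 passed upward and 2 downward (medians -0.18 and -0.35). Glp1r, the receptor of the incretin GLP-1, was lower at 3 weeks (-1.17, adjusted p = 0.00878 in edgeR), with 4.06 CPM in CD and 1.80 in HF+SD mice. It did not pass at 6 weeks (-0.67, adjusted p = 0.106). At 6 weeks Gcgr, the glucagon receptor, was higher (1.54, adjusted p = 0.00405), with 0.982 CPM in CD and 2.88 in HF+SD mice. Its CD values were 1.41 (M22), 0.982 (M43), 0.715 (M45) and 0.824 CPM (M48), in the reverse order of the muscle share. They rest on 22 to 49 counts per library. At 3 weeks it had 0.08 (adjusted p = 0.822). Sctr, the secretin receptor, was lower at 6 weeks (-1.98, adjusted p = 0.00784). Its CD values were 1.89 (M22), 2.24 (M43), 6.30 (M45) and 3.87 CPM (M48), in the order of the muscle share. Crhr2, a receptor of urocortins, was lower at 6 weeks too (-5.22, adjusted p = 0.0178), with 0.201 CPM in M22 but 5.39, 31.03 and 17.6 CPM in M43, M45 and M48.

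Of 5 genes of chemokines and receptors that share ligands with ACKR3, 1 passed each way at 3 weeks, and 2 passed upward and 1 downward at 6 weeks. Cxcl12, encoding a chemokine ligand, rose from 211 to 349 CPM at 3 weeks (0.72, adjusted p = 0.0495 in edgeR) and from 168 to 356 CPM at 6 weeks (1.08, adjusted p = 0.00308). Cxcl11, encoding another, was lower, with log2 fold changes of -1.55 and -2.12 (adjusted p = 0.00287 and 0.00537 in edgeR). Its levels were low, with means of 1.90 CPM in CD against 0.646 in HF+SD mice at 3 weeks and 3.72 against 0.856 CPM at 6 weeks. The 6-week HF+SD libraries had 19 to 45 counts. Cxcr4, the signaling receptor of CXCL12, had 0.07 (adjusted p = 0.897) and 0.70 (adjusted p = 0.0361).

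Adm is known as a target of hypoxia-inducible factors, and Adm2 has been placed among targets of the stress-response factor ATF4, so both target lists were read beside them. Among 14 hypoxia targets tested, 1 passed upward and 2 downward at 3 weeks and 3 and 5 at 6 weeks, with medians of 0.08 and -0.65. Vegfa, the vascular growth factor, rose by 0.64 and 1.01 on the log2 scale (adjusted p = 0.0158 and 0.0211 in edgeR). At 6 weeks its CD values were 1569 (M22), 962 (M43), 727 (M45) and 863 CPM (M48), in the reverse order of the muscle share. The HF+SD mice had 1952 to 2157 CPM there. Hk2, a hexokinase, had -1.87 and -3.57. Its CD values at 6 weeks were 34.8 (M22), 56.1 (M43), 119.7 (M45) and 95.5 CPM (M48), in the order of the muscle share. Ldha, lactate dehydrogenase A, had -2.52 at 6 weeks. Its 256 (M22), 717 (M43), 2695 (M45) and 1446 CPM (M48) on the CD were in that order too. The part of muscle RNA in the 6-week median of this list was not tested. Of 16 ATF4 targets tested, 1 passed upward and 3 downward at 3 weeks, 1 and 2 at 6 weeks, with medians of -0.37 and -0.14. Ddit4 rose at 6 weeks (1.62, adjusted p = 0.00072 in edgeR). Chac1 had -4.58 at 6 weeks, with 0.373 CPM in M22 and 34.7 in M45, and Cebpb had -1.12 at 3 weeks.

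The genes whose profiles lay nearest to Adm2 were found among 16617 genes by the root mean square difference of log2 CPM over the 16 libraries, each gene centred within a time point. They were Kcne1, a potassium channel subunit (0.407), the noncoding RNA Lhx1os (0.568), AU015791 (0.623), E330035G20Rik (0.666) and F10, coagulation factor X (0.669). The root mean square of the Adm2 profile itself was 2.78. Kcne1 had log2 fold changes of 4.50 at 3 weeks and 6.05 at 6 weeks and F10 of 4.15 and 5.08. Near to Ramp3 were Col13a1, a membrane collagen (0.164), Car4, a membrane carbonic anhydrase (0.199), the noncoding RNA Fendrr (0.203) and Pemt, an enzyme of phosphatidylcholine synthesis (0.213), against 1.09 for Ramp3 itself. The log2 fold changes of these 4 ran from 1.08 (Col13a1) to 1.56 (Fendrr) at 3 weeks and from 2.21 (Car4) to 2.72 (Fendrr) at 6 weeks. All these libraries enter the distance and the fold changes alike, so the likeness is a description.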

How the data were processed

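Bulk poly(A) RNA-seq of whole thyroid from 16 mice was analysed, with 4 mice per diet and time point grouped by the labels. The authors deposited raw counts for 21640 genes (reads per gene, not normalized) and a normalized signal, namely those counts divided by 1 size factor per library, which was used in 1 alternative. The submitters' processing notes name Trim Galore 0.6.7, STAR, DESeq2 1.36.0, R 4.1.0 and the build mm39, with no counting tool or strand setting. Names came from GENCODE M21 for 20841 of 21640 identifiers. Exon lengths are from GENCODE M21 too, and promoter sequences from RefSeq (GRCm38.p6), which held 7 of the 8 members. No mm39 coordinates are given.

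The 2 diets at each time point were contrasted in edgeR 4.0.16 under R 4.3.3 (TMM factors, filterByExpr, glmQLFit, glmQLFTest, Benjamini-Hochberg adjustment over every gene tested). A call needed an adjusted p under 0.05 and a log2 fold change past 1 or -1. log2 CPM used a prior count of 2. The fits were tested on simulated data with the same dispersion for every gene and no difference in muscle RNA between mice. That test does not cover the spread between the CD mice at 6 weeks. Single genes and within-library ratios were compared with an exact two-sided permutation test, whose smallest p is 0.0286. DESeq2 1.42.0, limma 3.58.1 (log2 of the signal plus 1), other scalings and filters, and leaving out mice were alternatives. The paper states fewer CD mice at 6 weeks than were deposited, and all 4 were used. Mean chi-square per gene between mice of a group was 15.1 to 871, so no library was a copy of another.

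The members, gene lists and tests were chosen with earlier results of these data known. Named genes are all members, at most 4 called genes per list by size of change, the 5 genes nearest to Adm2 and to Ramp3, and marker lists with 2 or 3 defining genes. Some genes that this rule names are not reported here. Library totals of 30025256 to 48508653 counts set the counting precision.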

Additional observations from a re-analysis of the deposited data

Results flagged for a closer look

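Groups of 4 mice were screened for a single mouse far from the others, as 28 groups over the 7 genes, and chance alone marks about 1 in 20 such groups. M48 on the CD at 6 weeks stood apart for Adm, with 9.58 CPM against 5.37 to 5.69 CPM in the other 3 mice. M7 on the HF+SD at 3 weeks stood apart for Ramp1, with 3.31 CPM against 1.20 to 1.37 CPM in the others of its group. In neither case was the cause tested. No gene of the system passed the test of a difference between the time points in edgeR.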

How the results depend on the processing

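The alternatives changed the counts of called genes as follows. At 3 weeks 3 genes were called, and 1 when libraries were scaled to 9 thyrocyte genes or to the endothelial genes. At 6 weeks 4 were called, and 3 to 6 across all alternatives. Leaving out 1 mouse gave 3 at 3 weeks and 3 to 6 at 6 weeks. For the difference between time points, 0 genes were called, but 2 under either scaling, 2 in DESeq2, 1 with at least 10 counts required in every library, and 0 to 2 on leaving out 1 mouse. Ackr3 was among the called genes in 1 of these alternatives, with a difference of -1.02 on the log2 scale. Scaling to thyrocyte genes shifted the all-gene median by -0.509 (3 weeks) and -0.959 (6 weeks), and scaling to 4 thyroid transcription factor genes, added after seeing the data because several thyrocyte genes rose with the diet, by -0.167 and -0.236. Under the thyrocyte scaling the log2 fold changes of Calcrl, Ramp1 and Ramp2 at 3 weeks became -0.30, -0.19 and -0.12, and those of Adm, Calcrl and Ramp2 at 6 weeks -0.20, -0.042 and -0.068. Under the endothelial scaling Adm, Calcrl, Ramp1 and Ramp2 at 3 weeks became -0.12, -0.58, -0.47 and -0.41, and Adm, Calcrl, Ramp2 and Ackr3 at 6 weeks -0.79, -0.66, -0.73 and -0.50. The difference between time points for Adm became -0.36 and -0.67 under these scalings, and under the endothelial one those of Calcrl and Ramp2 became -0.081 and -0.32. Without M45 and M48 that of Ackr3 became 0.18. Leaving out 1 mouse moved the difference for Adm between -0.16 and 0.33, Ramp1 at 3 weeks between -0.20 and 0.43, and the ratio of Ramp2 to Calcrl at 6 weeks between -0.27 and 0.075. With 4 transcription factor genes as the scale, Ramp3 at 3 weeks (0.97) fell short of the fold minimum, and Ackr3 (0.83, adjusted p = 0.196 in edgeR), Calcrl (0.68, 0.282) and Ramp2 (0.66, 0.202) at 6 weeks lost the adjusted p. The other ratios kept their sign, also with a prior count of 0.5. Adm2 was called at both time points in every alternative run. No paired analysis was possible because the labels carry no numbers shared between diets.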
